A study of Mus musculus with 8 samples.

Results

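A mouse egg completes meiosis by an extremely unequal division, and 44 genes for the actin cortex and polar body extrusion were described here in eggs with and without Esrp1. The 44 were taken as a list of actin, myosin and cytokinesis genes, by symbol, and all 44 were found among the 24860 genes of the deposited tables. RNA had been measured in mature oocytes at metaphase II (MII) from 6-week-old (postnatal day 42) C57BL/6 females that were wild type (WT) or Esrp1-/- (Esrp1-KO). ESRP1 is an RNA-binding protein that regulates alternative splicing, and how the allele was made, and whether the loss is limited to a cell type, is not given in the labels. Each group had 4 libraries, given as biological replicates, and each library came from a tube of 15 lysed oocytes amplified by Smart-seq2, which primes on poly(A) tails. Which females filled a tube is not given, and the p-values below rest on tube-to-tube spread alone. Values are FPKM (fragments scaled to transcript length and library total), a relative level within a library and not molecules per egg.

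Actin filaments in the egg have several jobs. The formin FMN2 and the SPIRE proteins assemble a mesh of unbranched filaments on RAB11-positive vesicles that moves the spindle to the cortex. The Arp2/3 complex, switched on by N-WASP below CDC42, builds the branched cap over the chromosomes, and RHOA, set by ECT2 and the centralspindlin subunit RACGAP1, drives a ring of formin-made filaments and myosin II that pinches off the polar body. Cofilin, profilin and capping protein set how fast filaments turn over, and ezrin, radixin and moesin tie them to the membrane.

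The libraries rested on 24910432 to 32337967 reads, worked out from the step between values. Esrp1 (ENSMUSG00000040728, GRCm38 chromosome 4, 11331933 to 11386783, minus strand) read 17.1, 17.2, 19.5 and 16.2 FPKM in WT replicates 1 to 4 and 3.62, 3.43, 2.31 and 3.83 in Esrp1-KO replicates 1 to 4 (log2 difference -2.12 ± 0.15 (SE), adjusted p = 1.32e-05). All 4 knockout libraries were below all 4 WT libraries, as their labels say, although reads of Esrp1 remained. All 12 egg markers passed the filter on level, with summed levels of 17238 to 21888 FPKM in WT and 20537 to 27288 in Esrp1-KO. Of the 12, 5 rose and 2 fell, beside 36.9% called over all genes tested. The most abundant, H1foo (9332 to 12548 FPKM in the group means) and Oosp1 (3445 to 4559 FPKM), did not pass. They weigh most in the sums, so the sums do not show that egg markers held steady. Markers of cumulus and granulosa cells summed to 6.44 to 8.27 FPKM in WT and to 2.27 to 3.40 in Esrp1-KO over 11 genes, with 5 of them under 0.1 FPKM in all libraries, and the most abundant, Cyp19a1, fell (6.097 ± 0.706 to 1.87 ± 0.393 FPKM, log2 difference -1.31, adjusted p = 0.0001197). Stroma and smooth muscle markers summed to 7.26 to 10.8 and 5.90 to 7.94 FPKM over 6 genes, of which 4 were under 0.1 in all libraries, and of the others Myh11 fell (8.77 ± 1.299 to 4.81 ± 0.902 FPKM, log2 difference -0.75, adjusted p = 0.00423) and Dcn rose (0.665 ± 0.322 to 2.12 ± 0.148 FPKM, log2 difference 0.93, adjusted p = 0.00164). Immune markers summed to 1.20 to 2.25 FPKM in WT and 1.95 to 11.2 in Esrp1-KO over 8 genes. The highest sum was that of Esrp1-KO replicate 3, and 5 genes were under 0.1 in all libraries. H2-Aa rose (0.811 ± 0.123 to 1.62 ± 0.345 FPKM, log2 difference 0.53, adjusted p = 0.0124). Cd68 did not pass (0.807 ± 0.499 to 1.32 ± 1.45 FPKM, log2 difference 0.24, adjusted p = 0.63). Its groups overlapped, and its highest value was also in Esrp1-KO replicate 3. Red cell markers reached at most 0.449 FPKM in a library, and markers of the 2-cell embryo 0.943 to 3.47 FPKM. Several members, the actins, Cfl1, Pfn1 and Myl6 among them, are abundant in most body cells. The part of such cells in the results was not tested.

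Of the 44 genes, 36 reached an overall mean of 1 FPKM and entered the test (limma on log2(FPKM + 1), adjusted over all 8021 genes tested, threshold 0.05). Of the 36, 9 rose in Esrp1-KO, 7 fell and 20 did not pass. Over all genes tested 36.9% passed, 13.9% higher and 23.1% lower, so the members' 16 of 36 (44.4%) lay close to the background. Their median log2 difference was 0.07, against -0.06 over all genes tested. The split of calls depended on the scaling. Median-ratio scaling gave 10 members higher and 4 lower, beside 19.3% higher and 18.3% lower over all genes. Quantile normalization gave 10 and 5, beside 18.5% and 19.3%. These scalings moved the median log2 difference of all genes from -0.06 to 0.05 and 0.03. The groups did not overlap for all 16 called members and for 18 of the 36 in all, beside 36.8% of all genes tested. Libraries carried the same numbers in both groups, but no label says that equal numbers were paired. With that number as a block 11 members rose and 8 fell, with all 16 calls kept. The lower calls rested in part on single libraries: without WT replicate 3, and likewise without Esrp1-KO replicate 3, only 4 members were called lower. Among the higher members, 2 of 9 rose by more than 1 on the log2(FPKM + 1) scale, Actg1 and Arpc5. Among the lower ones 1 of 7 fell by more than 1, Spire1. The added 1 shrinks changes of low genes: Pfn2 rose 2.35-fold in FPKM but by 0.89 on that scale.

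**Figure D1:**
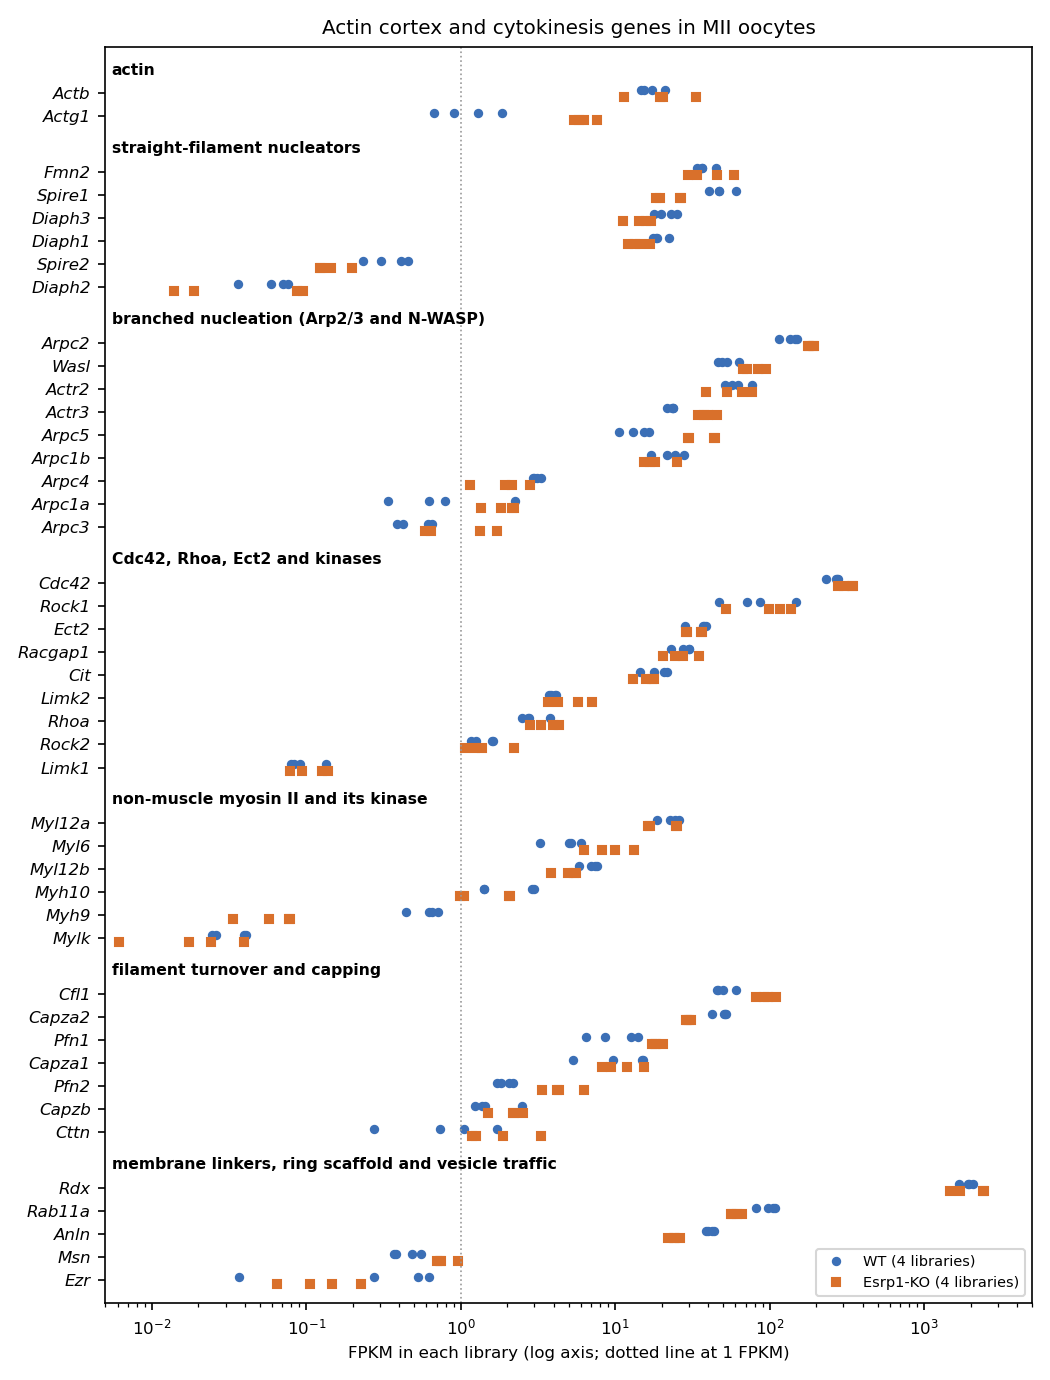
FPKM of all members in each library, on a log axis, grouped by role, with the 4 WT libraries as circles, the 4 Esrp1-KO libraries as squares and a dotted line at 1 FPKM. Rdx, at 1462 to 2435 FPKM, is the highest member in every library, and the 8 members below the filter lie at or under 1.72 FPKM.

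**Figure D2:**
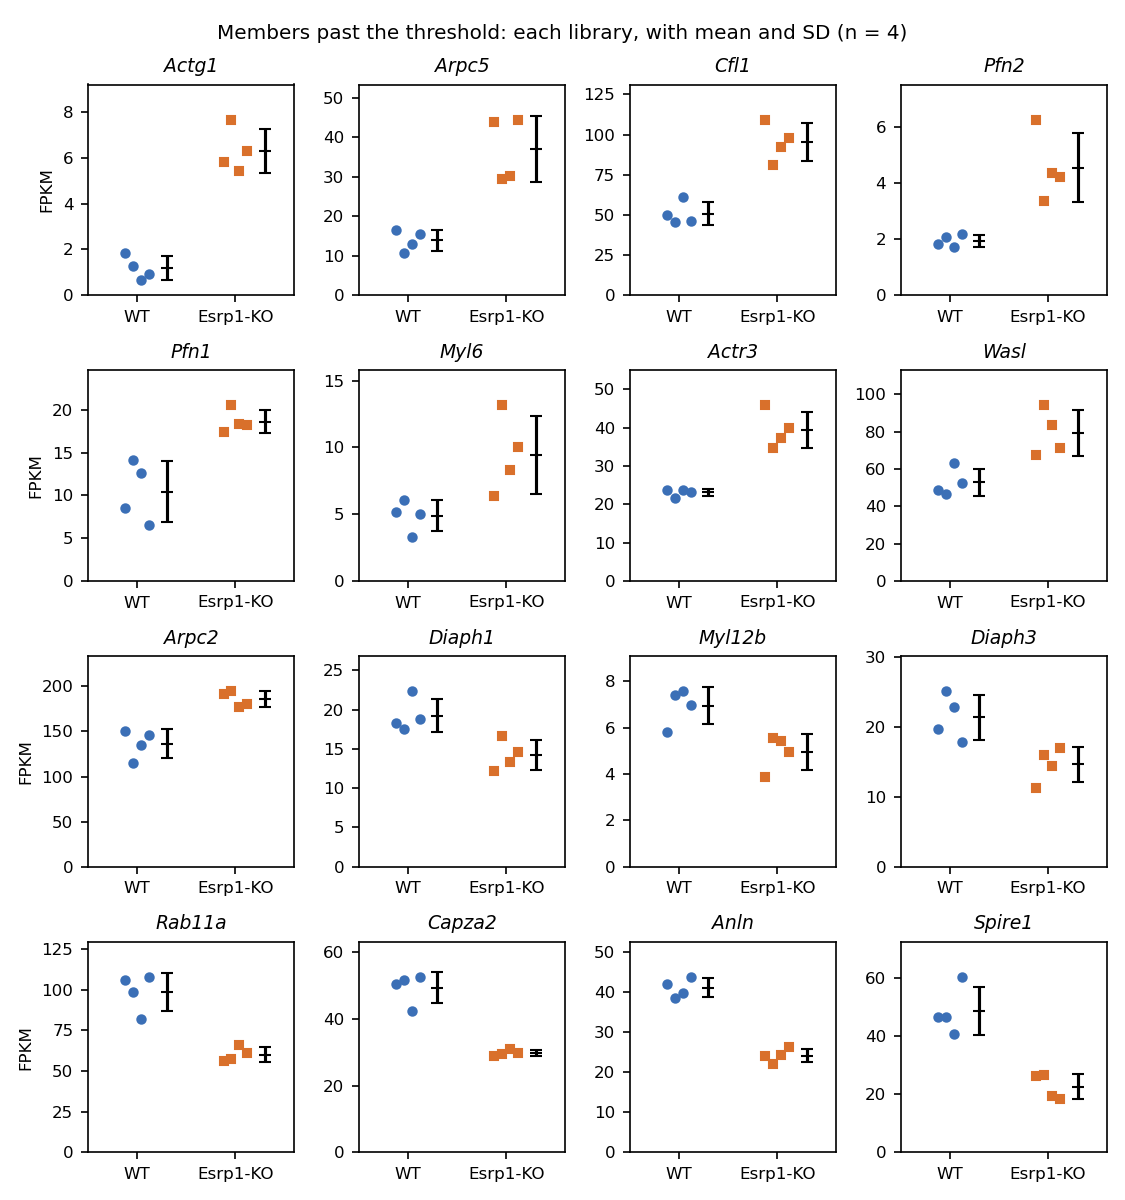
FPKM (linear axis from 0, a scale of its own in each panel) of the 16 called members in each of the 4 WT libraries (circles) and 4 Esrp1-KO libraries (squares), with bars for the mean and 1 SD. The 4 Esrp1-KO points of each of the 9 higher members lie above all 4 WT points, and those of each of the 7 lower members lie below them.

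Promoter and message sequences of the members were searched for motifs, to show which letters the members that changed carry. The CArG box is the binding motif of serum response factor, a regulator of many actin genes. Promoters from RefSeq on GRCm38.p6 (250 bases before to 50 after the start) were matched by symbol for 39 of the 44 members, and a CArG box, which reads the same on both strands as a pattern, was found in 4 of them (10.3%), beside 488 of 27025 genes with a promoter (1.81%). The 4 were Actg1 and Myl6, which rose, Rab11a, which fell, and Arpc4, which did not pass. The stretches are shown, with the box in capitals, at chr11:120348561-120348600 (minus), chr10:128493035-128493074 (minus) and chr9:64737886-64737925 (minus).
Actg1: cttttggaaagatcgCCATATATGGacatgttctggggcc
Myl6: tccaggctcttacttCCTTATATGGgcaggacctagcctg
Rab11a: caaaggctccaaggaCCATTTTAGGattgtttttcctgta
A match is a description of letters and was not tested as a site. In Actg1 the box started 90 bases before the RefSeq start, in Myl6 50 and in Rab11a 154. The GENCODE span of Myl6, on the minus strand, reaches 128494145, so its box lies inside the gene as given below.

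Eggs store messages and lengthen or shorten their poly(A) tails, and the cytoplasmic polyadenylation element marks messages whose tails are lengthened in meiosis. The last 100 bases of the longest basic protein-coding transcript in GENCODE M21 with a 3′UTR of at least 100 bases were searched, on the message strand, for TTTTAT or TTTTAAT, and the last 40 for AATAAA or ATTAAA. Which 3′ end is used in these eggs was not measured. The element was in 3 of the 7 members that fell (42.9%: Anln, Rab11a and Spire1), in 0 of the 9 that rose and in 4 of the 20 that did not pass (Actr2, Capzb, Rdx and Rock2), and in 0 of the 8 below the filter. Over all genes tested it was in 1540 of 6678 (23.1%), with 456 of 1503 lower genes (30.3%), 144 of 947 higher genes (15.2%) and 940 of 4228 that did not pass (22.2%). With so few members these shares are a description. Anln, Rab11a and Rdx are shown with the element in capitals, at chr9:22332023-22332052 (minus), chr9:64715334-64715363 (minus) and chr9:52088643-52088672 (plus).
Anln: agtaTTTTATgacataaataaataattgta
Rab11a: ttttTTTTAATctattgatttggagtacat
Rdx: ataaTTTTATgttgtacaagtaaattacaa
For contrast, Actg1 and Arpc5, which rose most, are shown with the polyadenylation signal in capitals and no element in the last 100 bases, at chr11:120345695-120345724 (minus) and chr1:152775546-152775575 (plus).
Actg1: attgtgtaaagaAATAAAagtgctgcagta
Arpc5: taaacttcagaaAATAAAatgtcagtgttg

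Of the 2 cytoplasmic actins, gamma-actin rose and beta-actin did not pass. Actg1 (ENSMUSG00000062825, GRCm38 chromosome 11, 120345690 to 120348542, minus strand) read 1.85, 1.29, 0.668 and 0.9103 FPKM in the WT replicates and 5.84, 7.67, 5.43 and 6.28 in the Esrp1-KO replicates. Every knockout library was above every WT library, and the mean went from 1.18 ± 0.517 to 6.31 ± 0.974 FPKM, a 5.34-fold rise (log2 difference 1.76 ± 0.18 (SE), adjusted p = 0.000101). WT libraries held 50 to 130 reads of Actg1 and knockout libraries 414 to 508. The gene has processed pseudogenes, and 37.4% of its 50-base stretches are found in other transcripts, so its level is uncertain. In a pool of eggs, a change in every egg and a change in the share of eggs or other cells that hold a message cannot be told apart. Actb (ENSMUSG00000029580, GRCm38 chromosome 5, 142903115 to 142906754, minus strand) was the more abundant actin at 14.7, 17.4, 20.99 and 15.3 FPKM in WT and 11.3, 19.4, 33.1 and 20.3 in Esrp1-KO (log2 difference 0.21 ± 0.27 (SE), adjusted p = 0.585). Those groups overlapped, with the highest and the lowest value both in knockout libraries. Gamma-actin made up 6.71 ± 3.40% of the pair's summed FPKM in WT (3.09 to 11.2%) and 25.01 ± 8.42% in Esrp1-KO (14.1 to 34.0%).

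**Figure D3:**
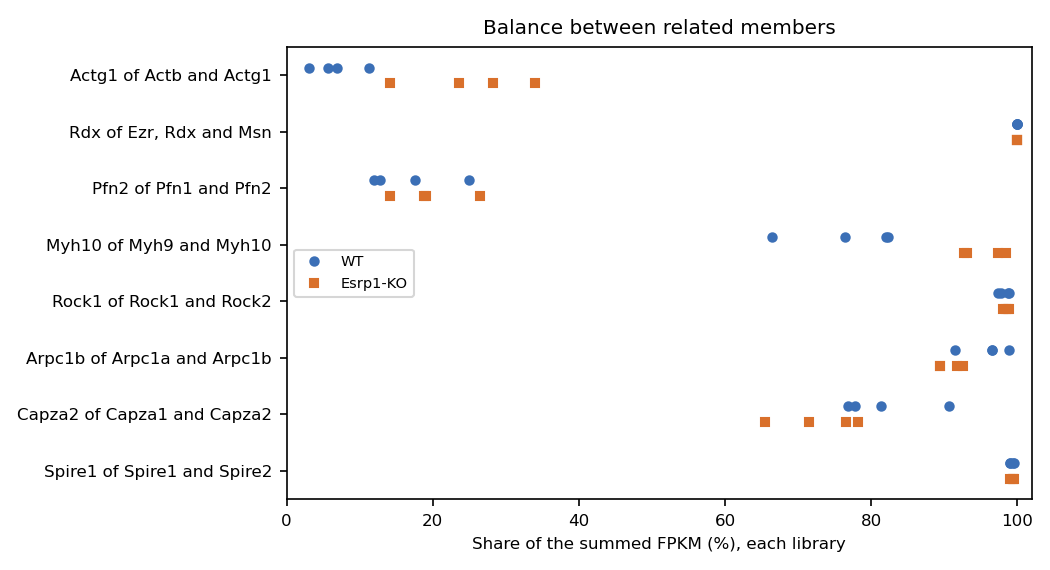
Share of a gene family's summed FPKM held by a member, in percent, with a point for each library of WT and Esrp1-KO. Gamma-actin holds 3.09 to 11.2% of the actin pair in WT and 14.1 to 34.0% in Esrp1-KO, and Myh10 holds 66.5 to 82.3% of its pair in WT and 92.7 to 98.4% in Esrp1-KO.

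Of the 4 tested nucleators of straight filaments 3 fell, and the fourth, the formin Fmn2, did not pass. Over all genes tested 23.1% were lower, and with so few genes the count is a description. Spire1 (ENSMUSG00000024533, GRCm38 chromosome 18, 67488209 to 67610790, minus strand), which nucleates filaments on vesicles together with FMN2, read 46.7, 46.8, 40.7 and 60.4 FPKM in WT and 26.3, 26.5, 19.6 and 18.3 in Esrp1-KO. The groups were far apart, with the knockout mean at 46.6% of WT (48.6 ± 8.37 to 22.7 ± 4.34 FPKM, log2 difference -1.07 ± 0.17 (SE), adjusted p = 0.00106). Its paralog Spire2 stood at 0.3501 FPKM in WT and 0.147 in Esrp1-KO, below the filter, so Spire1 held 99.3% of the summed FPKM of the pair in both groups. Fmn2 (ENSMUSG00000028354, GRCm38 chromosome 1, 174501825 to 174822729, plus strand) read 36.7, 33.995, 45.3 and 36.4 FPKM in WT and 29.6, 58.5, 45.7 and 34.1 in Esrp1-KO, with groups that overlapped (log2 difference 0.10 ± 0.21 (SE), adjusted p = 0.744). Spire1 thus fell while the transcript of its partner did not pass, and that contrast between the genes was not itself tested. Diaph1 (ENSMUSG00000024456, GRCm38 chromosome 18, 37843601 to 37935476, minus strand), a formin downstream of RHOA, read 18.3, 17.5, 22.3 and 18.8 FPKM in WT and 12.2, 16.7, 13.4 and 14.6 in Esrp1-KO (log2 difference -0.42 ± 0.13 (SE), adjusted p = 0.0351). Diaph3 (ENSMUSG00000022021, GRCm38 chromosome 14, 86655367 to 87141235, minus strand), its relative in contractile ring assembly, read 19.7, 25.1, 22.9 and 17.8 FPKM in WT and 11.2, 15.9, 14.3 and 17.03 in Esrp1-KO (log2 difference -0.52 ± 0.16 (SE), adjusted p = 0.0287). For both, all 4 knockout libraries were below all 4 WT libraries, but the calls depended on single libraries. Diaph1 no longer passed when any single library among WT replicates 1, 3 and 4 and Esrp1-KO replicates 1, 3 and 4 was left out (log2 difference -0.44 to -0.35, adjusted p 0.0639 to 0.0968). Diaph3 no longer passed without WT replicate 2 or 3 or without Esrp1-KO replicate 1 or 3, left out singly (log2 difference -0.52 to -0.41, adjusted p 0.0545 to 0.0737). Under median-ratio scaling neither passed, and under quantile normalization Diaph1 did not pass. Diaph2 was near the floor, at 0.0605 FPKM in WT and 0.0538 in Esrp1-KO.

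**Figure D4:**
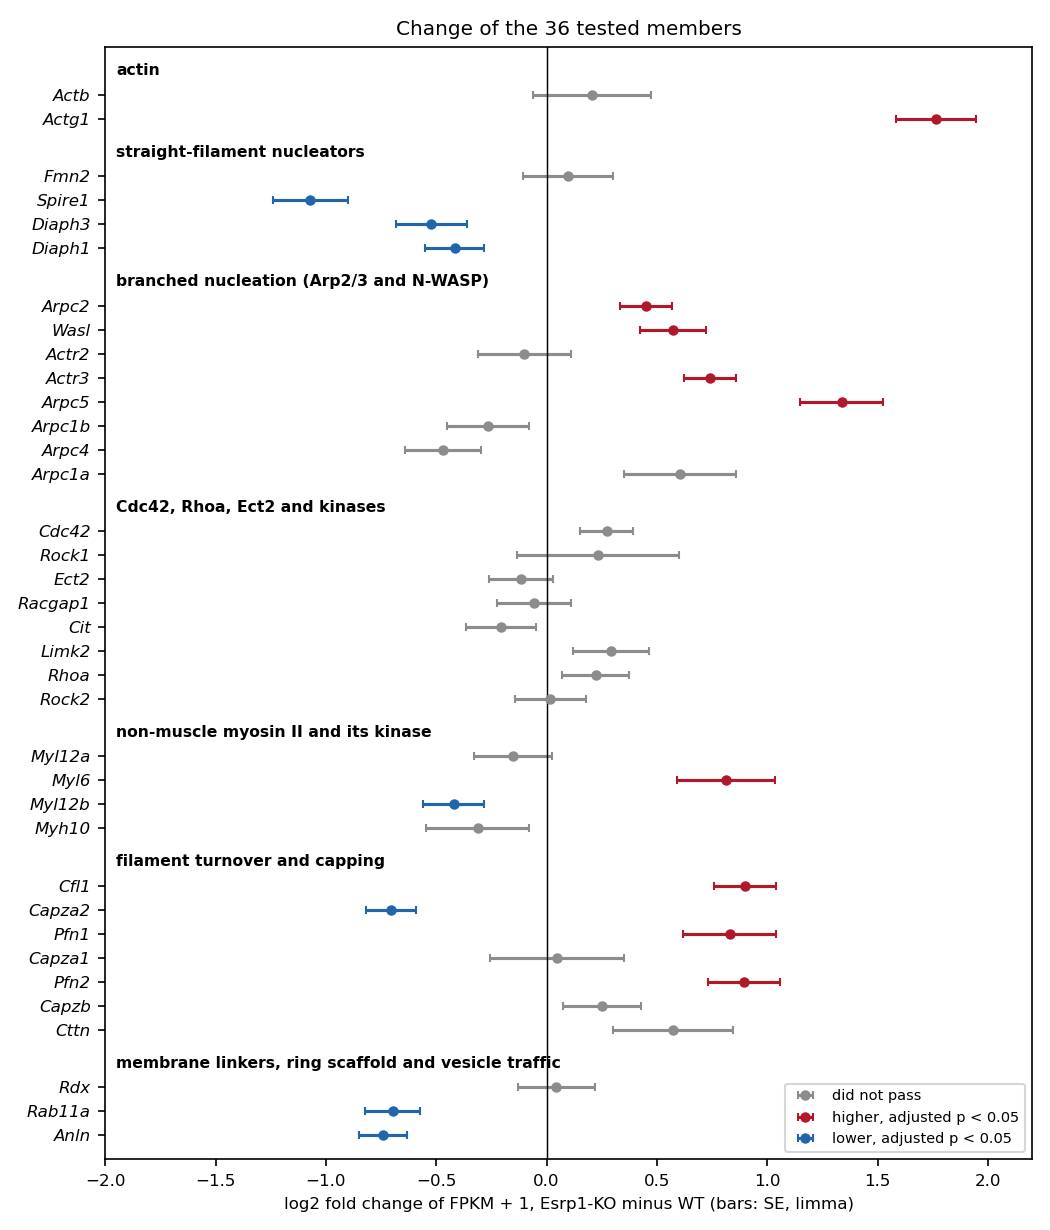
Log2 difference of Esrp1-KO minus WT on the log2(FPKM + 1) scale for the tested members, by role, with bars of 1 SE and colours for higher, lower and not passing. Actg1 and Arpc5 lie furthest to the right, at 1.76 and 1.34, and Spire1 furthest to the left, at -1.07.

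Of the 7 tested subunits of the Arp2/3 complex 3 rose, none fell and 4 did not pass, beside 13.9% higher and 23.1% lower over all genes tested. With so few genes the counts are a description, and differences between subunits were not tested. Arpc5 (ENSMUSG00000008475, GRCm38 chromosome 1, 152766542 to 152775597, plus strand), a small peripheral subunit, rose most, from 16.6, 10.7, 13.1 and 15.5 FPKM in WT to 43.9, 29.5, 30.2 and 44.5 in Esrp1-KO, a 2.65-fold change (log2 difference 1.34 ± 0.19 (SE), adjusted p = 0.000579). Its lowest knockout library was well above its highest WT library. Actr3 (ENSMUSG00000026341, GRCm38 chromosome 1, 125392905 to 125435727, minus strand), which with Actr2 forms the start of a new branch, read 23.7, 21.7, 23.8 and 23.2 FPKM in WT and 45.8, 34.6, 37.4 and 39.9 in Esrp1-KO (1.71-fold, log2 difference 0.74 ± 0.12 (SE), adjusted p = 0.00115), and 26.3% of its 50-base stretches are shared with other transcripts. Arpc2 (ENSMUSG00000006304, GRCm38 chromosome 1, 74236084 to 74268209, plus strand), a scaffold subunit and the most abundant of the complex, read 150.3, 115, 135 and 146 FPKM in WT and 192, 195, 177 and 180.4 in Esrp1-KO (1.36-fold, log2 difference 0.45 ± 0.12 (SE), adjusted p = 0.0144). Actr2, the partner of Actr3, did not pass, at 61.9 ± 10.7 FPKM in WT and 58.8 ± 16.4 in Esrp1-KO (log2 difference -0.10 ± 0.21 (SE), adjusted p = 0.7403). Arpc1b stood at 22.8 ± 4.499 FPKM in WT and 18.8 ± 4.27 in Esrp1-KO (log2 difference -0.27, adjusted p = 0.293), with about 18.2% of its exon bases shared with Pdap1 on the opposite strand. Arpc1a, its low-level alternative, stood at 1.002 ± 0.859 FPKM in WT and 1.89 ± 0.394 in Esrp1-KO. It did not pass (log2 difference 0.61, adjusted p = 0.0895), but did with the replicate block (adjusted p = 0.0479), under quantile normalization and without WT replicate 1 (log2 difference 0.87, adjusted p = 0.00506). Arpc4, which binds ARPC2 at the core of the complex, stood at 3.08 ± 0.186 FPKM in WT and 2.01 ± 0.683 in Esrp1-KO with groups that did not overlap (log2 difference -0.47, adjusted p = 0.0553). It passed as lower with the replicate block (adjusted p = 0.0453) and without Esrp1-KO replicate 1 (adjusted p = 0.0181), and 12.2% of its exon bases are shared with Ttll3. Arpc3 was below the filter, at 0.521 FPKM in WT and 1.07 in Esrp1-KO. The activator Wasl (N-WASP, ENSMUSG00000029684, GRCm38 chromosome 6, 24613805 to 24665009, minus strand) rose, from 48.9, 46.4, 63.03 and 52.7 FPKM in WT to 67.2, 94.1, 83.8 and 71.3 in Esrp1-KO (1.499-fold, log2 difference 0.57 ± 0.15 (SE), adjusted p = 0.0134).

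Cdc42 (ENSMUSG00000006699, GRCm38 chromosome 4, 137319696 to 137357720, minus strand), the GTPase that sets the cap of branched actin, did not pass, at 275, 271, 231 and 274 FPKM in WT and 344, 278, 305 and 345 in Esrp1-KO. The groups did not overlap, with knockout higher (log2 difference 0.27 ± 0.12 (SE), adjusted p = 0.101). It passed under median-ratio scaling and without Esrp1-KO replicate 2 (log2 difference 0.33, adjusted p = 0.0493), but not under quantile normalization. Rock1, a kinase that activates myosin II, varied widely, at 47.4, 71.4, 149 and 86.9 FPKM in WT and 52.6, 138, 117 and 99.4 in Esrp1-KO (log2 difference 0.23 ± 0.37 (SE), adjusted p = 0.656). Both of its replicates 1 were low and no group stood apart. The log2 differences of Rhoa, Ect2, Racgap1, Rock2, Cit and Limk2 lay between -0.21 and 0.29, none passed, and their groups overlapped. Ect2, the exchange factor for RHOA, stood at 35.4 ± 4.78 FPKM in WT and 32.6 ± 4.23 in Esrp1-KO, and Racgap1, its partner, at 27.7 ± 3.29 FPKM in WT and 26.9 ± 6.04 in Esrp1-KO. Rhoa itself was lower in level, at 2.94 ± 0.578 FPKM in WT and 3.601 ± 0.677 in Esrp1-KO. Citron kinase (Cit), which stabilises the midbody, stood at 18.7 ± 3.23 FPKM in WT and 16.03 ± 2.21 in Esrp1-KO, and the cofilin kinase Limk2 at 3.96 ± 0.1896 FPKM in WT and 5.2002 ± 1.53 in Esrp1-KO. Rock2 stood at 1.41 ± 0.231 FPKM in WT and 1.47 ± 0.505 in Esrp1-KO, and Limk1 was below the filter at 0.0972 FPKM in WT and 0.109 in Esrp1-KO. Values that did not pass are not shown to be equal: the SE of these log2 differences was 0.12 to 0.37.

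Of the 4 tested myosin II genes 1 rose and 1 fell, beside 13.9% higher and 23.1% lower over all genes tested. A heavy chain below the filter showed the widest gap. Myh9 (ENSMUSG00000022443, GRCm38 chromosome 15, 77760587 to 77842175, minus strand), the heavy chain of non-muscle myosin IIA, was below the filter, at 0.625, 0.439, 0.717 and 0.652 FPKM in WT and 0.0335, 0.0776, 0.0783 and 0.0574 in Esrp1-KO, which stood for 142 to 261 and for 14 to 29 reads. The knockout mean was 10.1% of WT (0.608 ± 0.119 to 0.0617 ± 0.0212 FPKM), and with no filter on low values it passed (adjusted p = 0.00239). The more abundant Myh10, the IIB heavy chain, stood at 2.19 ± 0.881 FPKM in WT and 1.55 ± 0.608 in Esrp1-KO (log2 difference -0.31 ± 0.23 (SE), adjusted p = 0.325), and it was lower in the knockout of every same-numbered pair. Myh10 thus made up 76.8 ± 7.41% of the summed FPKM of both heavy chains in WT (66.5 to 82.3%) and 95.4 ± 2.90% in Esrp1-KO (92.7 to 98.4%). Among the light chains, Myl6 (ENSMUSG00000090841, GRCm38 chromosome 10, 128490860 to 128494145, minus strand), the essential light chain, rose from 5.199, 6.05, 3.27 and 4.99 FPKM in WT to 6.33, 13.2, 8.28 and 9.998 in Esrp1-KO (log2 difference 0.81 ± 0.22 (SE), adjusted p = 0.0172). The regulatory light chain Myl12b (ENSMUSG00000034868, GRCm38 chromosome 17, 70973133 to 70990890, minus strand) read 5.83, 7.41, 7.58 and 6.99 FPKM in WT and 3.87, 5.56, 5.45 and 4.94 in Esrp1-KO (log2 difference -0.42 ± 0.14 (SE), adjusted p = 0.0383). Its call was lost under both other scalings and when any single library among WT replicates 2, 3 and 4 and Esrp1-KO replicates 1, 3 and 4 was left out (log2 difference -0.46 to -0.33, adjusted p 0.0506 to 0.0958). Its neighbour and near-copy Myl12a, the most abundant of this group at 18.8, 25.99, 24.4 and 22.5 FPKM in WT and 16.8, 24.7, 25.2 and 16.4 in Esrp1-KO, did not pass (log2 difference -0.15 ± 0.18 (SE), adjusted p = 0.537), and 21.1% and 25.4% of the 50-base stretches of Myl12a and Myl12b are found in other transcripts. Mylk, the light chain kinase, was near the floor at 0.0327 FPKM in WT and 0.0218 in Esrp1-KO.

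Of the 7 genes for filament turnover and capping, 3 rose, 1 fell and 3 did not pass. Over all genes tested 13.9% were higher and 23.1% lower. Cfl1 (ENSMUSG00000056201, GRCm38 chromosome 19, 5490455 to 5495201, plus strand), or cofilin, which severs old filaments, read 49.8, 45.6, 60.9 and 46.1 FPKM in WT and 109, 81.2, 92.2 and 98.02 in Esrp1-KO (1.88-fold, log2 difference 0.90 ± 0.14 (SE), adjusted p = 0.000948). The groups were well separated, although 18.3% of its 50-base stretches are shared, in part with Snx32 on the opposite strand, and Smart-seq2 does not mark strand. Pfn1 (ENSMUSG00000018293, GRCm38 chromosome 11, 70651850 to 70654644, minus strand), or profilin, which loads actin onto growing ends, read 8.56, 14.1, 12.6 and 6.51 FPKM in WT and 17.4, 20.5, 18.4 and 18.2 in Esrp1-KO (1.78-fold, log2 difference 0.83 ± 0.21 (SE), adjusted p = 0.0121). WT libraries were more spread than knockout libraries here. The log2 difference was 1.15 in replicates 1 and 4 and 0.51 in replicates 2 and 3 alone (adjusted p = 0.0138 and 0.0916). Pfn2 (ENSMUSG00000027805, GRCm38 chromosome 3, 57841895 to 57848079, minus strand), the other profilin, read 1.82, 2.07, 1.71 and 2.17 FPKM in WT and 6.27, 3.37, 4.35 and 4.21 in Esrp1-KO (2.35-fold, log2 difference 0.89 ± 0.16 (SE), adjusted p = 0.002201). Its share of profilin FPKM was 16.8 ± 5.99% in WT and 19.6 ± 5.12% in Esrp1-KO, ranges that overlapped. Capza2 (ENSMUSG00000015733, GRCm38 chromosome 6, 17636234 to 17666972, plus strand), an alpha subunit of capping protein, fell from 50.5, 51.7, 42.4 and 52.6 FPKM in WT to 28.9, 29.3, 30.9 and 29.9 in Esrp1-KO (to 60.4% of WT, log2 difference -0.71 ± 0.11 (SE), adjusted p = 0.00109). The knockout libraries agreed closely, within 28.9 to 30.9 FPKM. The other alpha subunit, Capza1, stood at 11.3 ± 4.73 FPKM in WT and 11.2 ± 3.12 in Esrp1-KO (log2 difference 0.05, adjusted p = 0.919), but 64.5% of its 50-base stretches are shared with other transcripts. The beta subunit Capzb stood at 1.64 ± 0.584 FPKM in WT and 2.12 ± 0.435 in Esrp1-KO (log2 difference 0.25, adjusted p = 0.292). Cortactin (Cttn), which stabilises branches, was at 0.945 ± 0.602 FPKM in WT and 1.902 ± 0.977 in Esrp1-KO (log2 difference 0.57, adjusted p = 0.125), and it passed as higher with the replicate block (adjusted p = 0.0131).

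Of the remaining genes, the scaffold Anln and the vesicle GTPase Rab11a fell while the membrane linker Rdx did not pass. Anln (ENSMUSG00000036777, GRCm38 chromosome 9, 22332012 to 22389188, minus strand), which holds actin, myosin and septins together in the ring, read 42.1, 38.5, 39.9 and 43.9 FPKM in WT and 23.98, 22.1, 24.4 and 26.3 in Esrp1-KO. The knockout libraries lay within 22.1 to 26.3 FPKM and the mean was 58.9% of WT (log2 difference -0.74 ± 0.11 (SE), adjusted p = 0.0007296). Rab11a (ENSMUSG00000004771, GRCm38 chromosome 9, 64715299 to 64737758, minus strand), which marks the vesicles that carry the actin mesh, read 106, 98.3, 82.1 and 108 FPKM in WT and 56.3, 57.1, 65.8 and 61.3 in Esrp1-KO (61.04% of WT, log2 difference -0.70 ± 0.12 (SE), adjusted p = 0.00198). Rdx (ENSMUSG00000032050, GRCm38 chromosome 9, 52047173 to 52088735, plus strand) was by far the most abundant member, at 1949, 1912, 2065 and 1680.5 FPKM in WT and 1462, 2435, 2406 and 1704 in Esrp1-KO, with overlapping groups (log2 difference 0.04 ± 0.18 (SE), adjusted p = 0.869). It held 99.96% and 99.95% of the summed FPKM of the 3 linkers in WT and Esrp1-KO. Ezr and Msn were below the filter, at 0.366 FPKM in WT and 0.136 in Esrp1-KO and 0.446 FPKM in WT and 0.786 in Esrp1-KO.

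Further genes of the same pathways came from 10 lists of 230 genes, of which 222 were listed and 126 tested. They gave 18 higher and 25 lower, or 34.1%, near the 36.9% of all genes tested (13.9% higher and 23.1% lower). Nucleation promoters of the WAVE and WASH complexes were mixed, with 3 of 13 higher and 3 lower: Washc4 fell (4.505 ± 0.845 to 1.21 ± 0.309 FPKM), Washc2 rose (12.4 ± 1.25 to 26.5 ± 6.01 FPKM) and Washc5 fell (4.33 ± 0.534 to 2.24 ± 0.196 FPKM). Other formins and nucleators gave 0 of 4. Paralogs of the actin, Arp2/3 and capping members gave 3 of 5 lower and none higher, with Pfn4 (3.72 ± 0.428 to 1.28 ± 0.403 FPKM), Cfl2 (19.3 ± 1.45 to 10.3 ± 2.32 FPKM) and Arpc5l (14.3 ± 0.372 to 9.63 ± 2.34 FPKM). Each fell where the named relatives Pfn1, Cfl1 and Arpc5 rose, and these contrasts between relatives were not tested. The Arpc5l call was lost without Esrp1-KO replicate 3 (adjusted p = 0.054) and in replicates 2 and 3 alone (adjusted p = 0.27). Disassembly and monomer-binding genes gave 3 higher and 1 lower of 12, with Coro2b at 4.25 FPKM in WT and 16.4 in Esrp1-KO. Cross-linkers gave 1 higher and 4 lower of 16, the higher one being Pls3 (plastin 3, which bundles filaments, 2.06 ± 0.333 to 12.2 ± 5.95 FPKM) and Enah among the lower (3.69 ± 0.329 to 1.65 ± 0.136 FPKM). Myosins and myosin phosphatase gave 1 higher (Myo5b, which carries RAB11 vesicles, 61.5 ± 6.17 to 103 ± 26.9 FPKM) and 3 lower of 14. RhoGAPs, RhoGEFs and polarity kinases gave 0 higher and 8 lower of 23 (34.8% called), beside 13.9% higher and 23.1% lower over all genes, with Pard6g, a partner of CDC42 in polarity, at 11.97 ± 1.81 to 2.203 ± 0.233 FPKM (log2 difference -2.01, adjusted p = 1.30e-05), the kinase Prkci at 9.11 ± 1.31 to 3.21 ± 0.4302 FPKM and the CDC42 effector kinase Cdc42bpa at 44.6 ± 6.19 to 18.9 ± 1.28 FPKM. Septins gave 2 higher of 4, Sept11 with overlapping groups. Central spindle, midbody and abscission genes gave 6 higher and 0 lower of 20 (30% called), beside the same 13.9% higher and 23.1% lower over all genes. Among the higher were Birc5 (45.4 ± 1.09 to 121 ± 33.4 FPKM, log2 difference 1.35, adjusted p = 0.000427), Aurkb and Chmp2b. Under median-ratio scaling the shares over all genes were 19.3% higher and 18.3% lower. Counts of single lists under that scaling are not given here. Vesicle traffic genes gave 2 higher and 3 lower of 15, with Exoc6 (14.4 ± 1.34 to 7.69 ± 1.17 FPKM) and Rab8a (5.69 ± 0.702 to 2.997 ± 0.431 FPKM) lower.

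Across 20 other ways of processing the values, 5 of the 16 called members, Actg1, Actr3, Arpc5, Spire1 and Anln, passed in every one that gave them a value. The other 11 kept their direction and lost the call under at least 1 of them. Diaph1 and Myl12b each lost it under 12 and Diaph3 under 9.

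**Figure D5:**
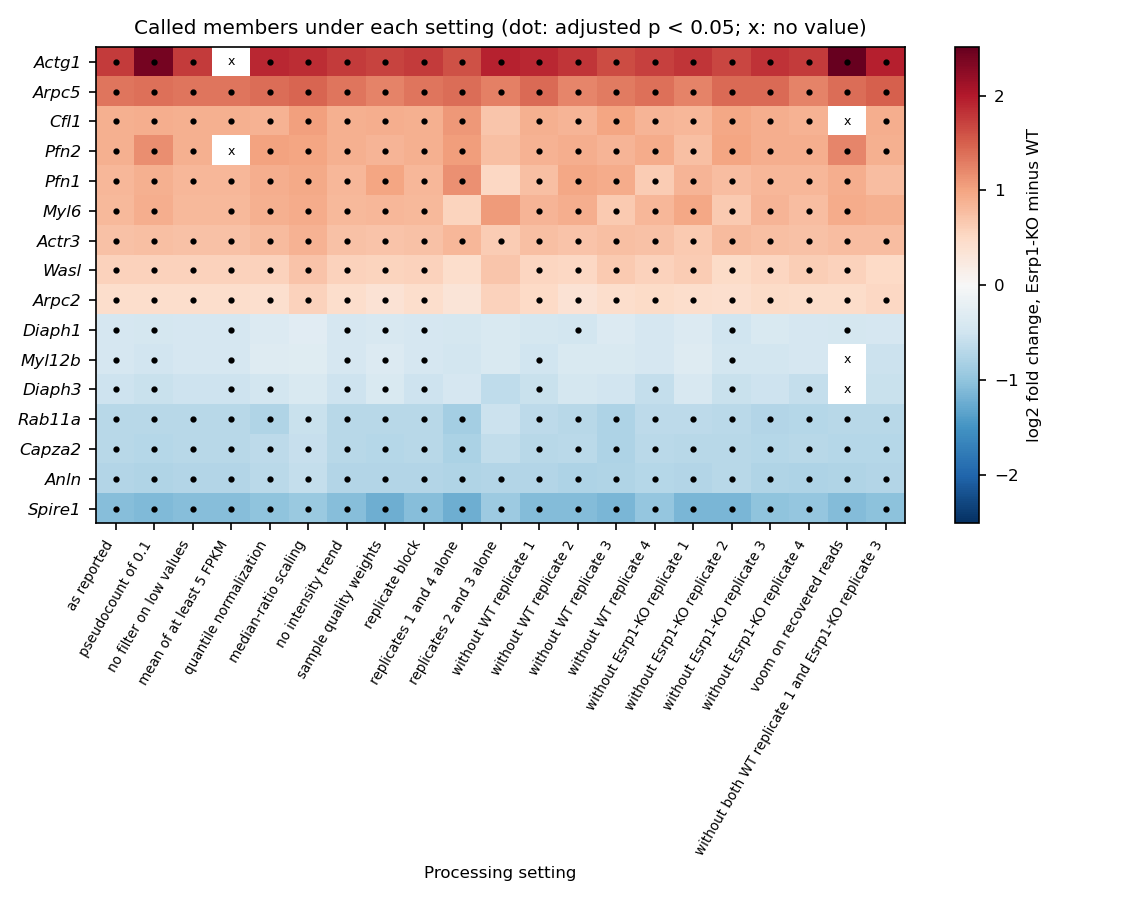
Log2 difference of Esrp1-KO minus WT (colour, red higher and blue lower) of the 16 called members (vertical) as reported and under each of the 20 alternatives (horizontal), with a dot where the adjusted p was under 0.05 and an x where the alternative gave no value. Actg1, Arpc5, Actr3, Anln and Spire1 carry a dot under every alternative that gave them a value, and Diaph1 and Myl12b lose theirs under 12 each.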

How the data were processed

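RNA was measured in 4 WT and 4 Esrp1-KO libraries. The authors deposited FPKM per gene, per the file headers, with GRCm38 as the build in the submitters' processing notes. No aligner, counter or annotation is given in the sources used here. Of 24860 genes, 24812 had a symbol in GENCODE M21. About 90% of values were whole reads within 0.02 of a read, which gave the library totals. PCR copies were not marked, so reads are not molecules.

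The test was limma 3.58.1 (R 4.3.3) on log2(FPKM + 1), two-sided, with an intensity trend and genotype alone in the model. It took the 8021 genes whose overall mean reached 1 FPKM, and p-values were Benjamini-Hochberg adjusted over them. On that scale low genes appear to change less than they do. The steps were tested on simulated data with far fewer changed genes than were called here and noise independent between libraries. That test does not cover deviations that libraries share. Same-numbered libraries, numbered in the labels, deviated together (correlations 0.226 to 0.317 in all 4 pairs), so a replicate block was an alternative. Some pairs of unlike number correlated as much, with 0.402 for WT replicate 4 and Esrp1-KO replicate 1 and 0.252 for WT replicate 3 and Esrp1-KO replicate 2. Shared sequence was counted in 50-base stretches of M21 transcripts.

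The members, the lists and the tests were chosen with earlier results of these data known. Named are Esrp1, all members, up to 3 called genes of each pathway list by smallest p, and 2 genes of the egg, stroma and immune lists by level. Of the cumulus and granulosa list only the most abundant gene is named, and of the red cell and 2-cell embryo lists none.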

Additional observations from a re-analysis of the deposited data

Results flagged for a closer look

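In 88 groups of 4 libraries (each member in each genotype), 3 held a library far from the others, where chance flags about 1 in 20 groups. Cdc42 was low in WT replicate 3, at 231.1 FPKM against 270.7 to 275.2 in the other WT libraries. Capzb was high in WT replicate 2, at 2.508 FPKM against 1.24 to 1.44 in the other WT libraries. Msn was high in Esrp1-KO replicate 4, at 0.9669 FPKM against 0.704 to 0.745 in the other knockout libraries.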

How the results depend on the processing

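The 20 alternatives covered the pseudocount, the filter, the scaling, the trend, quality weights, a replicate block, recovered reads and left-out libraries. 1 of them, leaving out both WT replicate 1 and Esrp1-KO replicate 3, was chosen after seeing the data. The others were planned, but with earlier results of these data known. The Esrp1 fall passed in all 20 (log2 difference -2.42 to -1.90). Of the 16 called members, Actg1, Actr3, Arpc5, Spire1 and Anln passed in every alternative that gave them a value. The 9 higher members became 3 in replicates 2 and 3 alone, and 9 to 10 when 1 library was left out. The 7 lower members became 4 under median-ratio scaling, in replicates 1 and 4 alone and without both libraries, 2 in replicates 2 and 3 alone, and 4 to 7 when 1 library was left out. The 43 pathway genes became 28 with a mean of at least 5 FPKM, where fewer genes are tested, 21 in replicates 2 and 3 alone, and 34 to 48 when 1 library was left out. Elsewhere the cause was not tested, and smaller subsets hold fewer samples. With the replicate block 11 members rose and 8 fell, adding Arpc1a, Cttn and Arpc4, and 50 pathway genes passed. Sign changes touched only members that did not pass. In log2 differences, median-ratio scaling turned Actr2 to 0.034, Ect2 to 0.017 and Racgap1 to 0.076, and quantile normalization turned Racgap1 to 0.0103. Quality weights turned Capza1 to -0.20. Replicates 1 and 4 alone turned Fmn2 to -0.20, Racgap1 to 0.042, Rock2 to -0.044, Capza1 to -0.15 and Rdx to -0.20, and replicates 2 and 3 alone turned Actr2 to 0.18. Leaving out libraries singly or both together gave -0.10 to 0.45 for Actb, -0.075 to 0.24 for Fmn2, -0.27 to 0.078 for Actr2, -0.19 to 0.059 for Racgap1, -0.12 to 0.52 for Rock1, -0.11 to 0.10 for Rock2, -0.24 to 0.27 for Capza1 and -0.062 to 0.18 for Rdx. Depth limits the members under 1 FPKM.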

Other observations

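Some members differed between libraries of different number by more than they did between genotypes. In log2(FPKM + 1), replicates 2 and 3 minus replicates 1 and 4, Rock1 was higher by 0.68 in WT and 0.80 in Esrp1-KO, and Actb by 0.33 and 0.71. Capza1 differed by -0.97 and -0.56, Myh10 by -0.70 and -0.60, and Cttn by -0.66 in both groups. These values are a description, and no label gives this split or a shared day or litter for these numbers. Most WT and Esrp1-KO libraries on the same side of the split also deviated together over the genes tested. The correlation was 0.402 for WT replicate 4 and Esrp1-KO replicate 1, but 0.017 for WT replicate 1 and Esrp1-KO replicate 4. The split is thus not independent of these data.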
